A study of Mus musculus with 6 samples.

Results

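The genes described here are 36 genes of the cell cycle and DNA replication, picked by symbol from a table of 24341 genes measured in 6 mouse livers. All 36 were found in the table. They fall into 9 genes of G1 and its exit, 11 of S phase and DNA precursor supply, and 16 of G2, mitosis and its control. RNA carrying poly(A) was sequenced from 3 livers labelled Prkciflox/floxAlbCre and 3 labelled Prkciflox/flox, called Alb-Cre livers and floxed controls here. Both groups carry loxP-flanked alleles of Prkci, which encodes atypical protein kinase C lambda/iota, and all mice were of the C57BL/6 background on regular chow, with an age of 30 weeks in the sample labels and 28 weeks in the series design. The Alb-Cre livers add a Cre recombinase driven by the albumin promoter, which is active in hepatocytes. The state of the floxed alleles in other cells of the liver was not examined here.

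Dividing cells pass from G1, where D-type cyclins and CDK4 lift the block set by RB on E2F factors, into S phase. There the MCM helicase and PCNA take part in copying DNA, from nucleotides made by ribonucleotide reductase, thymidylate synthase and thymidine kinase. A later wave of genes, switched on through B-MYB and FOXM1 and held down in resting cells by the DREAM complex, then drives chromosome segregation. Adult hepatocytes rest in G0 and seldom divide unless liver mass is lost, so this last wave is scarce in healthy adult liver.

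Prkci stood at 5.70, 5.26 and 4.42 FPKM in Alb-Cre replicates 1, 2 and 3, against 5.57, 3.65 and 4.44 FPKM in floxed controls 1, 2 and 3. An FPKM value divides a gene's reads by its length and by the size of the library. The value covers the whole gene and all liver cells, and the labels do not say which part was deleted, so it does not check them (log2 difference 0.15, SE 0.18). Read totals, estimated from the steps between low values, were 15190000 to 17650000 in Alb-Cre livers and 14740000 to 16600000 in floxed controls. Hepatocyte markers were abundant, with Ttr at 2893 to 3180 FPKM in Alb-Cre livers and 3889 to 6432 FPKM in floxed controls, while Alb was listed at 0 in all 6. Alb-Cre replicate 1 stands apart from the other 5 livers in several gene groups below. The differences of some genes, and the medians of the S-phase and mitotic genes, are given with and without that liver.

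The 16 mitotic genes were higher in Alb-Cre replicate 1 than in any other liver and lay much nearer to the floxed controls in Alb-Cre replicates 2 and 3. Tk1, the thymidine kinase gene, was lower in all 3 Alb-Cre livers, and the D-type cyclin gene Ccnd3 was higher in all 3. No gene of the 36 passed the test: in limma's moderated test on log2(FPKM + 1) with Benjamini-Hochberg adjustment over 13977 genes, 0 were called higher and 0 lower at an adjusted p under 0.05, where 0.00715% and 0.0143% of all tested genes were. At an unadjusted p under 0.05, limma gave 1 member higher (Ccnd3) and 1 lower (Tk1), or 2.78% each, where 5.56% of all tested genes were higher and 3.22% lower (8.78% in either direction). The mean log2 level was higher in Alb-Cre livers for 29 of the 36, or 80.6%, where it was for 57.4% of all tested genes. Without Alb-Cre replicate 1 it was higher for 15 of 34 tested, or 44.1%, where it was for 44.3% of all tested genes, so the majority rests on that liver. The Alb-Cre and control values did not overlap for 2 members that were higher (Ccnd3 and Birc5) and 2 that were lower (Tk1 and Cdkn1b), or 5.56% each, where 9.87% of all tested genes were higher in this way and 5.25% lower. The shares past an unadjusted p or without overlap are near or below those of all tested genes. Without Alb-Cre replicate 1, limma called 0 of the 36 after adjustment, where 0.413% of 13795 tested genes were higher and 0.312% lower. At an unadjusted p under 0.05 it then gave 2 higher (Ccnd3 and Birc5) and 2 lower (Tk1 and Rrm1) of 34 tested, where 7.48% of all tested genes were higher and 8.0% lower.

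The G1 cyclin genes Ccnd1 and Ccnd3 were among the most abundant of the 36, and the D-type cyclins differed in pattern. Ccnd1, which encodes cyclin D1, the cyclin that couples growth signals to CDK4, had 89.1, 49.8 and 68.5 FPKM in Alb-Cre livers 1, 2 and 3, against 41.1, 41.3 and 55.1 FPKM in floxed controls. Its groups overlapped, since Alb-Cre replicate 2 lay below floxed control 3, and the log2 difference was 0.56 (SE 0.23, limma adjusted p = 0.571) and 0.36 without Alb-Cre replicate 1 (limma adjusted p = 0.468). Ccnd1 lies at chr7:144929931-144939925 (GRCm38) and overlaps LTO1 on the other strand. Ccnd3, which encodes cyclin D3, had 19.4, 23.8 and 28.1 FPKM in Alb-Cre livers, against 17.9, 12.9 and 17.6 FPKM in floxed controls. Every Alb-Cre liver lay above every control, with the lowest Alb-Cre value close to the highest control, and the log2 difference was 0.53 (SE 0.19, 95% interval 0.08 to 0.98, limma adjusted p = 0.515). Ccnd3 lies at chr17:47505051-47599691, overlaps Bysl on the other strand and has a pseudogene, Ccnd3-ps. Ccnd2, the cyclin D2 gene, had 4.16, 1.75 and 1.52 FPKM in Alb-Cre livers, against 3.19, 1.51 and 3.07 FPKM in floxed controls. Its values overlapped throughout (log2 difference -0.09, SE 0.34).

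**Figure D1:**
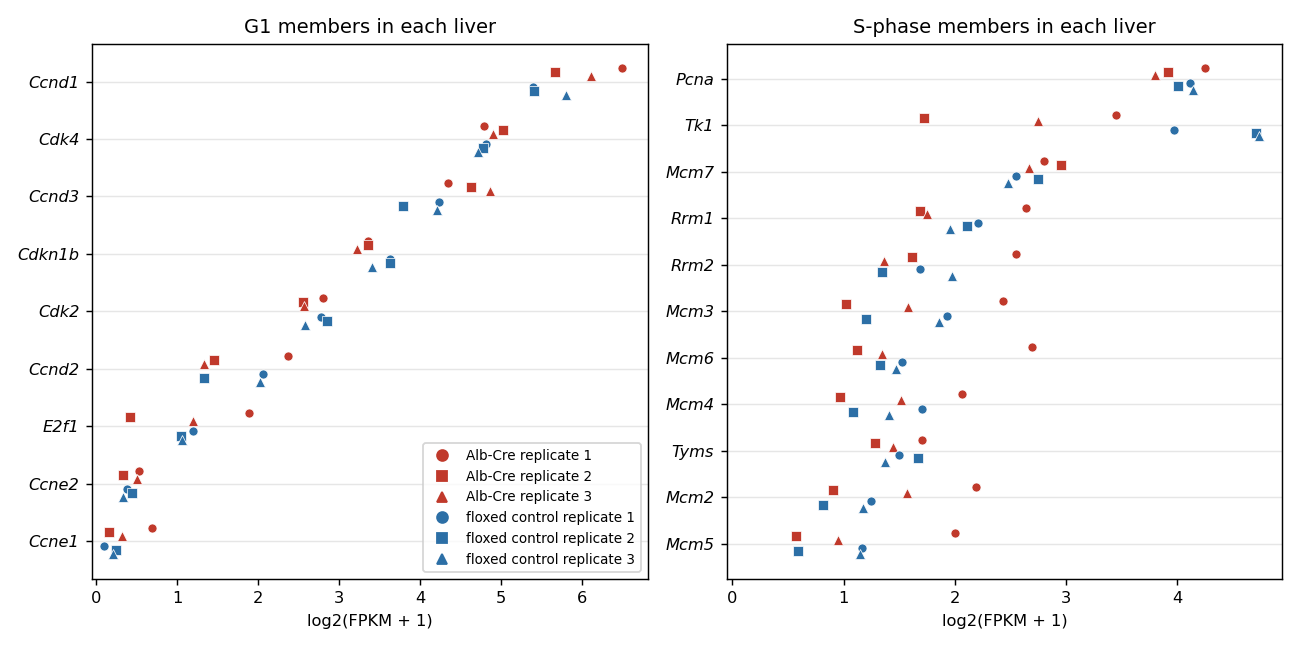
Level of the 9 G1 genes (left) and the 11 S-phase genes (right) in each liver, as log2(FPKM + 1), with 1 point per liver and genes ordered by mean level. Alb-Cre replicate 1 lies to the right for most of the MCM genes and E2f1, while Tk1 lies to the left in all 3 Alb-Cre livers.

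The partners and inhibitors of the G1 cyclins differed by small amounts. Cdk4, the kinase bound by D-type cyclins, had 26.8, 31.5 and 28.9 FPKM in Alb-Cre livers, against 27.3, 26.5 and 25.3 FPKM in floxed controls (log2 difference 0.13, SE 0.11, limma adjusted p = 0.760). Its groups overlapped. Cdkn1b, which encodes the CDK inhibitor p27, had 9.30, 9.28 and 8.32 FPKM in Alb-Cre livers, against 11.4, 11.4 and 9.58 FPKM in floxed controls. Its groups did not overlap, the highest Alb-Cre value lying close to floxed control 3, and the log2 difference was -0.24 (SE 0.12, limma adjusted p = 0.639). Cdk2, the kinase of cyclins E and A, had a mean of 5.26 ± 0.648 FPKM in Alb-Cre livers and 5.70 ± 0.632 FPKM in floxed controls (SD, n = 3 each). Those values overlapped.

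E2f1 and the cyclin E genes, which act at the entry to S phase, were scarce. E2f1 had 2.70, 0.337 and 1.30 FPKM in Alb-Cre livers, against 1.28, 1.06 and 1.08 FPKM in floxed controls, so Alb-Cre livers held both the highest and the lowest value. Ccne1 had 0.615, 0.112 and 0.249 FPKM in Alb-Cre livers, against 0.0689, 0.184 and 0.154 FPKM in floxed controls, or an estimated 3.1 to 19.5 reads and 2.1 to 5.1 reads per liver. Ccne2 averaged 0.373 ± 0.102 FPKM in Alb-Cre livers and 0.306 ± 0.0461 FPKM in floxed controls (SD, n = 3 each). The 9 G1 genes summed to 158.5, 121.6 and 142.2 FPKM in Alb-Cre livers, against 108.4, 101.5 and 117.1 FPKM in floxed controls, with no overlap and with Ccnd1 as the largest part. Of the 9, 6 had a higher mean in Alb-Cre livers, and the median log2 difference was 0.07, where the median over all tested genes was 0.04.

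Tk1, which encodes the thymidine kinase that salvages thymidine in dividing cells, had the largest difference of the 36 genes on the log2(FPKM + 1) scale, which understates the change of scarcer genes. It had 9.92, 2.31 and 5.72 FPKM in Alb-Cre livers, against 14.7, 25.3 and 25.7 FPKM in floxed controls. All 3 Alb-Cre livers lay below all controls, and the group mean was 0.273 times that of the controls (log2 difference -1.83, SE 0.45, 95% interval -2.92 to -0.75, limma adjusted p = 0.404). Without Alb-Cre replicate 1 the log2 difference was -2.24 (limma adjusted p = 0.0675). By its mean in floxed controls Tk1 was the most abundant S-phase gene here, at 21.9 ± 6.23 FPKM (SD, n = 3). These values stand for an estimated 43.5 to 217.1 reads in Alb-Cre livers and 302.7 to 483.5 reads in floxed controls.

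Tk1 lies on chromosome 11 of GRCm38 (mm10), from 117815526 to 117826092 on the minus strand, and its start overlaps that of Afmid on the plus strand over 169 bases. Gm20708, also annotated as protein-coding on the plus strand, overlaps Tk1 too, and its level was not read here. Afmid encodes arylformamidase, an enzyme of tryptophan breakdown. Afmid had 39.7, 17.3 and 36.6 FPKM in Alb-Cre livers, against 48.2, 64.7 and 79.7 FPKM in floxed controls, so its groups did not overlap either (log2 difference -1.07, SE 0.34, limma adjusted p = 0.476). The Tk1 value divided by the Afmid value was 0.250, 0.134 and 0.156 in Alb-Cre livers and 0.305, 0.390 and 0.323 in floxed controls. Tk1 was therefore lower relative to its neighbour as well. The sources used here do not say whether counting used strand, so reads of a shared stretch may belong to either gene. The part of Afmid or Gm20708 in the Tk1 value was not tested. The region from 250 bases before to 50 bases after the Tk1 start in RefSeq (GRCm38.p6) is printed 5′ to 3′ on the Tk1 strand to show this arrangement, with the 42 bases that lie in annotated Afmid exons, read here on their opposite strand, in capitals.
Tk1, chr11:117825965-117826264, minus strand: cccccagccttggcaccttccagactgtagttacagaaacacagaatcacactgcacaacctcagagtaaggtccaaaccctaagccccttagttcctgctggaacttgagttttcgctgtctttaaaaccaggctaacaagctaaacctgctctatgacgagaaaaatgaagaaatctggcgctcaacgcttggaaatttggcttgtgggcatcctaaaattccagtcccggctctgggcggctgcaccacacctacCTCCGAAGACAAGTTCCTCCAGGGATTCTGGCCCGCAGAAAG

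**Figure D2:**
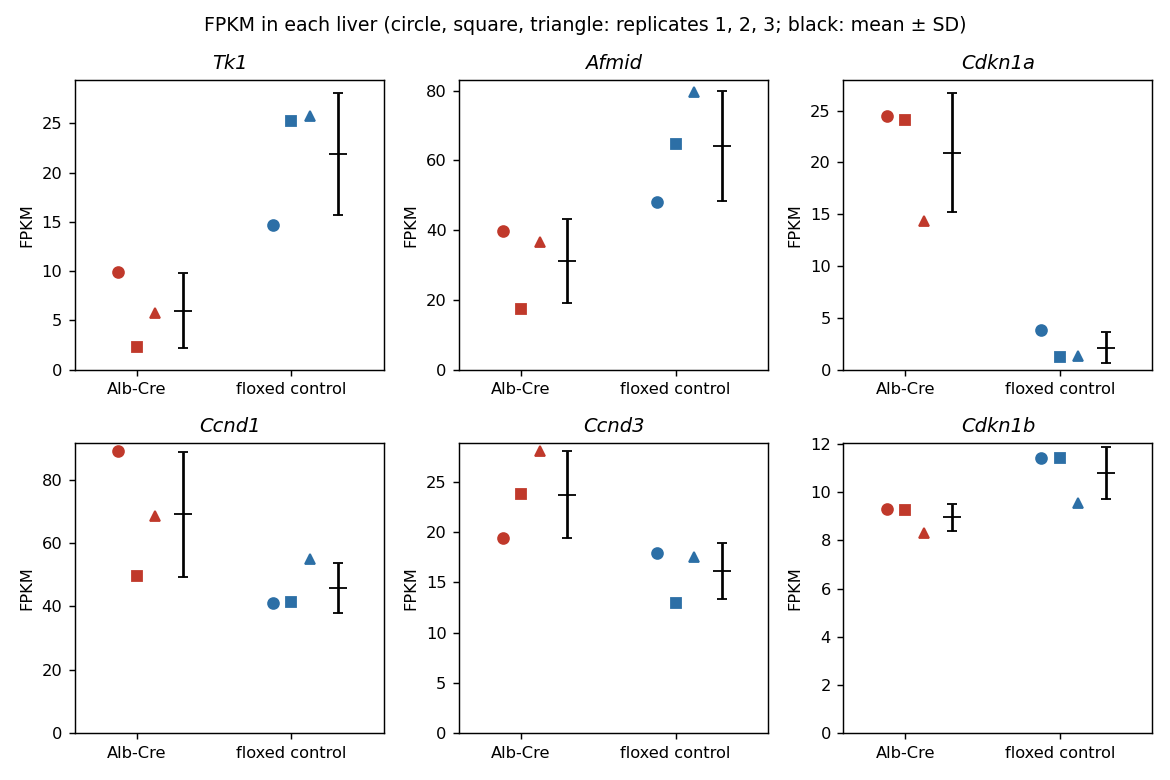
FPKM in each liver for Tk1, its divergent neighbour Afmid, the p21 gene Cdkn1a, the cyclin genes Ccnd1 and Ccnd3 and the p27 gene Cdkn1b, with the mean ± SD (n = 3) in black. Alb-Cre and control values do not overlap for Tk1, Afmid, Cdkn1a, Ccnd3 and Cdkn1b, and overlap for Ccnd1.

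The other DNA precursor enzymes did not share the lower level of Tk1 in all livers. Rrm1, the large subunit of ribonucleotide reductase, had 5.23, 2.22 and 2.37 FPKM in Alb-Cre livers, against 3.63, 3.32 and 2.89 FPKM in floxed controls. Alb-Cre replicate 1 was thus above all controls and replicates 2 and 3 were below them. Rrm2, the small subunit, had 4.88, 2.06 and 1.58 FPKM in Alb-Cre livers, against 2.23, 1.54 and 2.94 FPKM in floxed controls. Tyms, which makes thymidylate and has a pseudogene named after it, averaged 1.80 ± 0.430 FPKM in Alb-Cre livers and 1.87 ± 0.290 FPKM in floxed controls (SD, n = 3 each). Without Alb-Cre replicate 1, Rrm1 had a log2 difference of -0.38 with limma adjusted p = 0.319.

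Among replication proteins, Pcna, the sliding clamp, had 18.1, 14.2 and 12.9 FPKM in Alb-Cre livers, against 16.4, 15.1 and 16.7 FPKM in floxed controls (log2 difference -0.10, SE 0.15, limma adjusted p = 0.885). Pcna has pseudogenes named after it, and the sources used here do not say how reads matching several places were counted. The 6 genes of the MCM helicase, Mcm2 to Mcm7, summed to 25.6, 11.3 and 13.6 FPKM in Alb-Cre livers and to 14.4, 10.9 and 13.1 FPKM in floxed controls. The higher sum was thus that of Alb-Cre replicate 1, and those of Alb-Cre replicates 2 and 3 lay within the control range. Mcm6 showed the widest gap, with 5.47, 1.17 and 1.55 FPKM in Alb-Cre livers, against 1.88, 1.51 and 1.78 FPKM in floxed controls. Mcm2 had 3.56, 0.871 and 1.97 FPKM in Alb-Cre livers, against 1.37, 0.754 and 1.26 FPKM in floxed controls.

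Mcm7, the most abundant MCM gene, departed from that pattern, with 6.00, 6.77 and 5.34 FPKM in Alb-Cre livers and 4.85, 5.71 and 4.59 FPKM in floxed controls (log2 difference 0.22, SE 0.14, limma adjusted p = 0.712). It overlaps Ap4m1 and Cops6 on the other strand and holds 3 microRNA genes, Mir25, Mir93 and Mir106b, so its value may include their reads. Alb-Cre replicate 1 was the highest liver for the other 5 MCM genes. Mcm3 had 4.42 FPKM, Mcm4 3.18 FPKM and Mcm5 3.00 FPKM there, 1.57, 1.41 and 2.42 times the next liver. Alb-Cre replicate 2 lay below all 3 controls for 8 of the 11 S-phase genes, or 72.7%, where 30.1% of all tested genes did. The median log2 difference of the 11 S-phase genes was 0.11 with all livers and -0.20 without Alb-Cre replicate 1, where the median over all tested genes was 0.04 and -0.04.

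The mitotic genes were scarce in 5 livers and high in 1. Their summed level was 49.95, 3.04 and 7.97 FPKM in Alb-Cre replicates 1, 2 and 3, against 6.44, 3.42 and 3.91 FPKM in floxed controls 1, 2 and 3. Alb-Cre replicate 1 was the highest liver for 16 of 16 mitotic genes, where it was the highest for 38.2% of all tested genes. Bub1 and Ccnb1 passed the filter on low values only through that liver, so their place was fixed by the filter. For the 14 mitotic genes that pass without it, Alb-Cre replicate 1 was the highest for 14 and at least 2 times the next liver for 14, where it was for 37.2% and 3.91% of all genes passing that filter. For all 16 the level in Alb-Cre replicate 1 was at least 2 times that of the next liver, as for 4.86% of all tested genes, with a ratio to the next liver from 2.63 (Mki67) to 10.4 (Cdc20) and a median of 5.43. The same held for 2 of the 9 G1 genes (E2f1 and Ccne1) and 2 of the 11 S-phase genes (Mcm5 and Mcm6). These counts describe 1 liver, chosen after its values were seen, and carry no test.

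**Figure D3:**
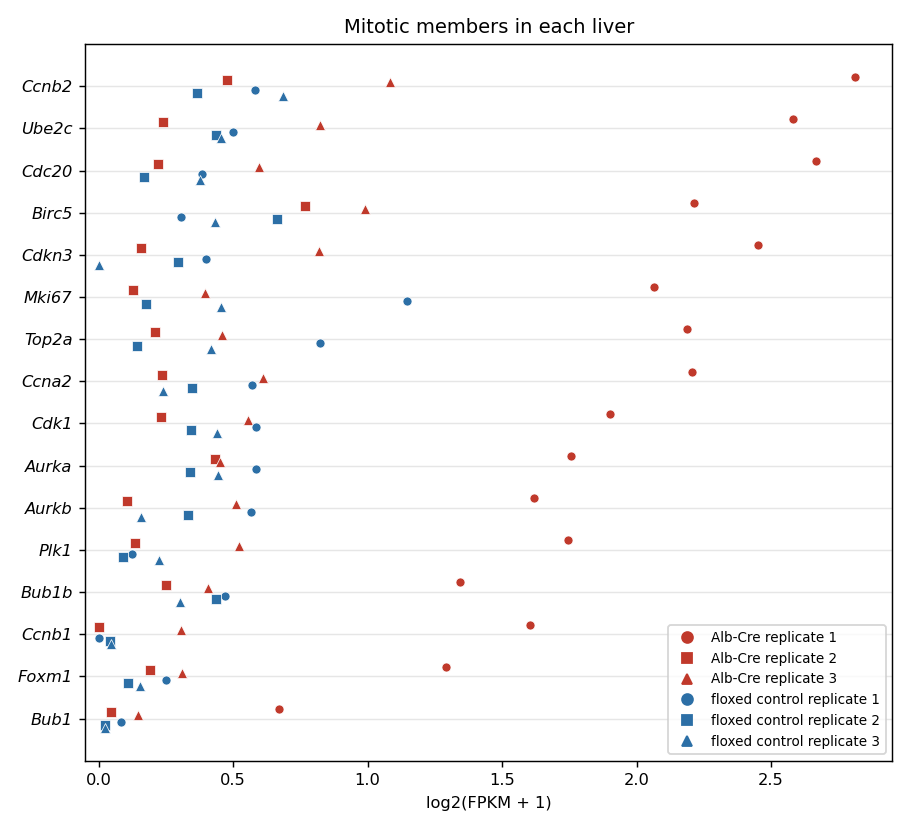
Level of the 16 mitotic genes in each liver as log2(FPKM + 1), with 1 point per liver and genes ordered by mean level. Alb-Cre replicate 1 (red circles) lies right of every other liver for each gene, while Alb-Cre replicates 2 and 3 lie among or near the floxed controls.

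Mitotic cyclins and their kinase were high in Alb-Cre replicate 1. Ccnb2, which encodes cyclin B2, had 6.02, 0.393 and 1.12 FPKM in Alb-Cre livers, against 0.496, 0.290 and 0.606 FPKM in floxed controls (log2 difference 0.91, SE 0.56, limma adjusted p = 0.687). Its log2 difference was 0.24 (SE 0.21) without Alb-Cre replicate 1. Ccnb1, the cyclin B1 gene, had 2.04 and 0.236 FPKM in Alb-Cre replicates 1 and 3 and was listed at 0 in replicate 2, against 0.0306 and 0.0320 FPKM in floxed controls 2 and 3 and a listed 0 in floxed control 1. Those control values stand for about 1 read each, so no fold is given. Ccna2, the cyclin A2 gene, had 3.61, 0.176 and 0.526 FPKM in Alb-Cre livers, against 0.486, 0.272 and 0.181 FPKM in floxed controls. Cdk1, the kinase that these cyclins activate for entry into mitosis, had 2.73, 0.173 and 0.469 FPKM in Alb-Cre livers, against 0.49996, 0.267 and 0.356 FPKM in floxed controls. In each of these genes Alb-Cre replicate 2 was the lowest of the Alb-Cre livers.

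Genes of mitotic exit had the same pattern. Cdc20, an activator of the anaphase-promoting complex, had 5.34, 0.166 and 0.512 FPKM in Alb-Cre livers, against 0.305, 0.123 and 0.299 FPKM in floxed controls (log2 difference 0.85, SE 0.61, limma adjusted p = 0.734). The Cdc20 log2 difference was 0.10 (SE 0.15) without Alb-Cre replicate 1. Ube2c, the ubiquitin-conjugating enzyme of that complex, had 4.98, 0.180 and 0.770 FPKM in Alb-Cre livers, against 0.414, 0.355 and 0.371 FPKM in floxed controls (log2 difference 0.75, SE 0.56, limma adjusted p = 0.748). The Ube2c log2 difference was 0.07 (SE 0.18) without that liver. For both genes Alb-Cre replicate 3 was also above all controls, by far less than replicate 1. Cdkn3, which encodes a phosphatase of CDKs, had 4.47, 0.115 and 0.765 FPKM in Alb-Cre livers, against 0.318 and 0.226 FPKM in floxed controls 1 and 2 and a listed 0 in floxed control 3.

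Mitotic kinases and checkpoint genes were also highest in Alb-Cre replicate 1. Aurka and Aurkb, the aurora kinases, had 2.38 and 2.07 FPKM in Alb-Cre replicate 1, at least 4.29 times the next liver. Plk1, the polo-like kinase of mitotic entry, had 2.35, 0.0985 and 0.436 FPKM in Alb-Cre livers, against 0.0906, 0.0646 and 0.169 FPKM in floxed controls. Bub1 and Bub1b, of the spindle checkpoint, had 0.590 and 1.54 FPKM in Alb-Cre replicate 1. Elsewhere Bub1 stayed at 0.0156 to 0.106 FPKM and Bub1b at 0.190 to 0.383 FPKM. Foxm1, the transcription factor of this gene wave, had 1.44, 0.142 and 0.240 FPKM in Alb-Cre livers, against 0.189, 0.0776 and 0.114 FPKM in floxed controls.

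Mki67, the gene of the proliferation antigen Ki-67, and Top2a, a topoisomerase that untangles chromosomes, differed among the controls too. Mki67 had 3.19, 0.0932 and 0.316 FPKM in Alb-Cre livers, against 1.21, 0.131 and 0.370 FPKM in floxed controls. Top2a had 3.55, 0.157 and 0.373 FPKM in Alb-Cre livers, against 0.771, 0.103 and 0.337 FPKM in floxed controls. In both genes replicate 1 was the highest liver of its group. Birc5, which encodes survivin, a subunit of the chromosomal passenger complex, was the only mitotic gene whose groups did not overlap. It had 3.64, 0.702 and 0.986 FPKM in Alb-Cre livers, against 0.235, 0.584 and 0.351 FPKM in floxed controls (log2 difference 0.86, SE 0.38, limma adjusted p = 0.581), and a log2 difference of 0.41 without Alb-Cre replicate 1 (limma adjusted p = 0.278).

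Few reads lie behind these levels. The median mitotic value stood for an estimated 139.9 reads in Alb-Cre replicate 1, 11.45 reads in Alb-Cre replicates 2 and 3, and 10.05 reads in floxed controls. Differences between Alb-Cre replicates 2 or 3 and the controls thus often rest on a handful of reads per gene. The median log2 difference of the 16 genes was 0.55 with all livers and 0.06 without Alb-Cre replicate 1, where the medians over all tested genes were 0.04 and -0.04. Alb-Cre replicate 3 lay above all 3 controls for 10 of the 16 mitotic genes, or 62.5%, where it did for 24.9% of all tested genes, and replicate 2 lay below all 3 for 6 of 16, or 37.5%, where it did for 30.1%.

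**Figure D4:**
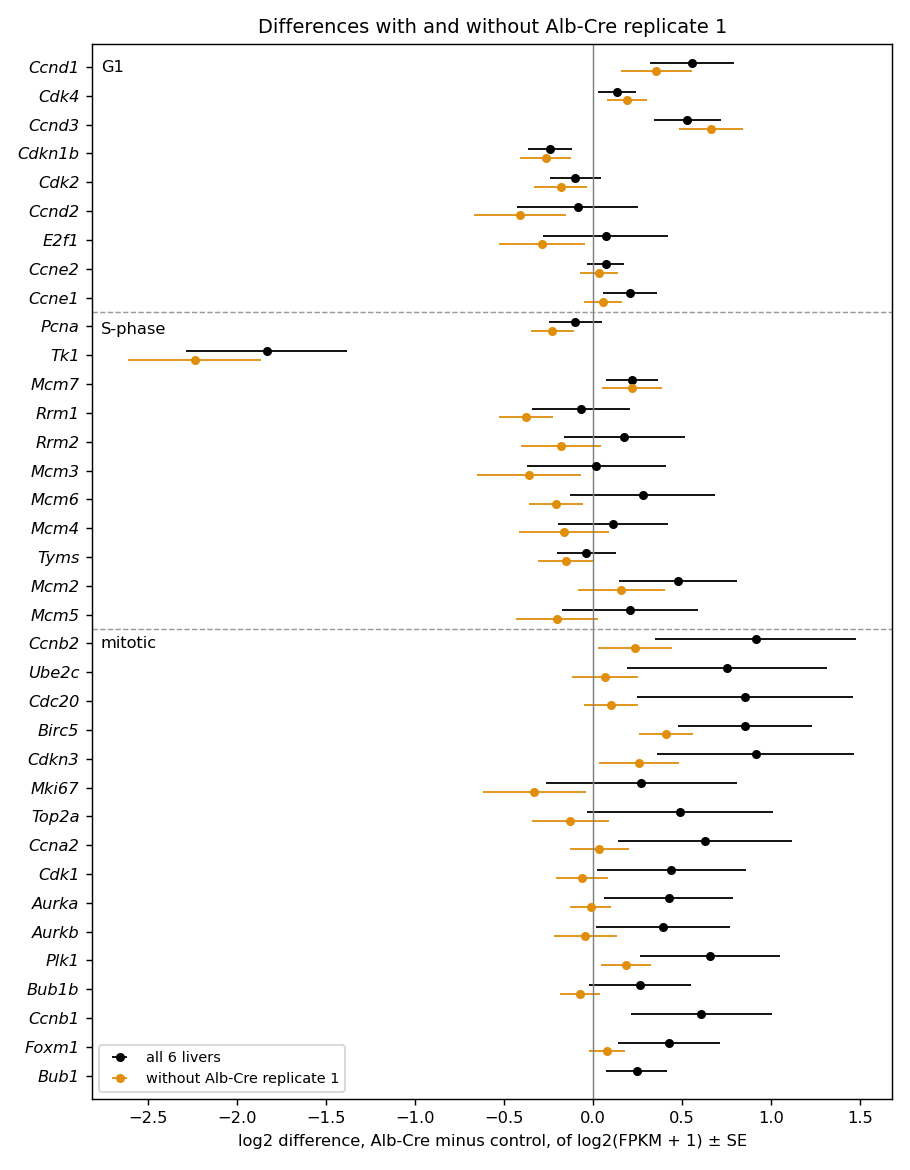
Log2 difference of Alb-Cre minus floxed control, with its SE, for the 36 genes, with all 6 livers (black) and without Alb-Cre replicate 1 (orange). Of the 14 mitotic genes tested without that liver, 8 lie above 0 and 6 below, Mki67 among them, while Tk1 and Ccnd3 stay on their side. Bub1 and Ccnb1 have no orange point, since their mean without that liver was under 0.1 FPKM and they were not tested there.

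Most promoters of the mitotic genes share sequence elements. The genes were picked by symbol, and whether earlier knowledge of these elements entered the choice is not known. Motifs of 3 kinds were searched on both strands of each window from 250 bases before to 50 bases after a RefSeq gene start. They were the cell cycle homology region TTTGAA, through which the DREAM and B-MYB complexes bind, the CCAAT box CCAAT, bound by NF-Y, and the E2F sites TTTCCCGC, TTTGGCGC, TTTCGCGC and TTTGCCGC, of which matches can overlap. Of the 36 genes 29 had 1 or more windows, 31 in all. TTTGAA was found in 10 of 13 windows of mitotic genes, 1 of 11 of S-phase genes and 0 of 7 of G1 genes, and in 17.9% of all 32851 windows. CCAAT was found in 12 of 13, 9 of 11 and 3 of 7 of these windows and in 37.4% of all. The E2F sites were found in 1 of 13, 4 of 11 and 1 of 7, and in 2.26% of all. TTTGAA and CCAAT stood together in 10 of 13 windows of mitotic genes and in 6.95% of all. A match describes letters and shows no binding.

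Ccnb2 (chr9:70407692-70421547), Cdc20 (chr4:118432901-118437352) and Ube2c (chr2:164769898-164778822) are the genes whose windows are shown for the mitotic wave. Cdc20 overlaps Elovl1 and Ube2c overlaps Tnnc2, both on the other strand, and Ccnb2 has a pseudogene, Ccnb2-ps. The windows of these 3 mitotic genes with the highest levels in Alb-Cre replicate 1 are printed 5′ to 3′ on the strand of the gene (RefSeq, GRCm38.p6), with TTTGAA and CCAAT on either strand in capitals.
Ccnb2, chr9:70421505-70421804, minus strand: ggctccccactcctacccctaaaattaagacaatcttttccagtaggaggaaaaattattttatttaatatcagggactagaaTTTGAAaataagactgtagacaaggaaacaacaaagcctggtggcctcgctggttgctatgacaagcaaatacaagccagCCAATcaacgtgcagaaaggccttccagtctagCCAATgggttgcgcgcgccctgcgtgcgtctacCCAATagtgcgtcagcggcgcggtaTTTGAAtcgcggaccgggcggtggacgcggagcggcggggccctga
Cdc20, chr4:118437294-118437593, minus strand: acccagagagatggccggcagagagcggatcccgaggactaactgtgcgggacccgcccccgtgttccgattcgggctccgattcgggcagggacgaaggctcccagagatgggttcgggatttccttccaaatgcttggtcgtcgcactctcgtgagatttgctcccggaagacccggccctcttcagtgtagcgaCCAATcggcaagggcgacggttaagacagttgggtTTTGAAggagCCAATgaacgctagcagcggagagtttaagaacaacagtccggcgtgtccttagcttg
Ube2c, chr2:164769679-164769978, plus strand: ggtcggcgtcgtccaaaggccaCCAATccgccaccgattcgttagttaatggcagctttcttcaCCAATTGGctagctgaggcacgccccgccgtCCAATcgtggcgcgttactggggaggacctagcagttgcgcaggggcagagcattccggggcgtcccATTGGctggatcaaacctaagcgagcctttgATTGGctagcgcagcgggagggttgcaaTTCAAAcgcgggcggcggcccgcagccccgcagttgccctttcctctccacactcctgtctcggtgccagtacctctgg

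The window of Mcm6, the S-phase gene with the widest gap between Alb-Cre replicate 1 and the next liver, is set beside them, with E2F sites and CCAAT on either strand in capitals. It holds 3 E2F matches, a pair of which overlap, and no TTTGAA.
Mcm6, chr1:128359656-128359955, minus strand: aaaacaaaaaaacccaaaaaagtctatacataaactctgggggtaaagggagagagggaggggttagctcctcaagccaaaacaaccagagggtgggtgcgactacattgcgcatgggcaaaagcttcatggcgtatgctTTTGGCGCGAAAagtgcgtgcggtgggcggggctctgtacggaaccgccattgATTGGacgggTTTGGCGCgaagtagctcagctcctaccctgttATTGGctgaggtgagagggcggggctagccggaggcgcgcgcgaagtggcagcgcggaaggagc

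Other cell cycle genes, from 8 lists of 129 genes that are not among the 36, were read in the same way. Of 126 tested, limma called 0 higher and 0 lower after Benjamini-Hochberg adjustment. At an unadjusted p under 0.05, 4 were higher and 6 lower, or 3.17% and 4.76%, where 5.56% of all tested genes were higher and 3.22% lower. The same background applies to the counts of each list below. The nearest in kind to the mitotic genes were 25 genes of the spindle, kinetochore and cytokinesis. Alb-Cre replicate 1 was the highest liver for 23 of them, where it was for 38.2% of all tested genes. It was at least 2 times the next liver for 22, where it was for 4.86% of all tested genes. Cenpe, Cenpf, Espl1, Hmmr, Kif2c and Ttk passed the filter on low values only through that liver, so the filter itself selected for a high value there. The median level of the 25 genes was 1.71, 0.164 and 0.405 FPKM in Alb-Cre livers, against 0.323, 0.0947 and 0.259 FPKM in floxed controls. The exceptions to the first count were Ccnf, highest in Alb-Cre replicate 2, and Pttg1, the securin gene, at 30.3 FPKM in Alb-Cre replicate 1 and 38.0, 44.4 and 31.7 FPKM in the controls. Ccnf, which encodes cyclin F of an SCF ubiquitin ligase, had 3.45, 6.56 and 2.88 FPKM in Alb-Cre livers, against 1.46, 2.79 and 2.15 FPKM in floxed controls (log2 difference 0.72, SE 0.30, limma adjusted p = 0.567).

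CDK inhibitors other than p27 held the largest difference among these lists. Cdkn1a, which encodes p21, an inhibitor of CDK2 and a target of p53, had 24.4, 24.1 and 14.3 FPKM in Alb-Cre livers, against 3.81, 1.17 and 1.31 FPKM in floxed controls (log2 difference 2.89, SE 0.36, limma adjusted p = 0.202). It was thus high in Alb-Cre replicates 2 and 3, where mitotic genes were near the controls, and in replicate 1, where they were not. Cdkn2a, the locus of p16 and p19ARF, had 0.613, 0.543 and 0.858 FPKM in Alb-Cre livers, against 0.280, 0.200 and 0.209 FPKM in floxed controls (log2 difference 0.44, SE 0.11, limma adjusted p = 0.404). Of 6 inhibitor genes 2 were higher and 0 lower at an unadjusted p under 0.05, where 5.56% of all tested genes were higher and 3.22% lower.

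Of 15 tested pocket protein and E2F genes, 0 were higher and 2 lower at an unadjusted p under 0.05, or 13.3% lower, where 3.22% of all tested genes were lower. Tfdp2, a dimer partner of E2F factors, had 2.83, 2.14 and 2.39 FPKM in Alb-Cre livers, against 4.48, 4.03 and 4.49 FPKM in floxed controls (log2 difference -0.63, SE 0.14, limma adjusted p = 0.366). Lin9, a core subunit of the MuvB complex that binds the TTTGAA element, had 0.978, 0.467 and 0.590 FPKM in Alb-Cre livers, against 1.27, 1.11 and 1.07 FPKM in floxed controls (log2 difference -0.37, SE 0.15, limma adjusted p = 0.562). Both genes had separate groups, with all 3 Alb-Cre livers below the controls, Alb-Cre replicate 1 included.

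Replication genes outside the 36 had a higher mean log2 level in Alb-Cre livers for 7 of 17 tested licensing and firing genes and 9 of 22 fork genes, or 41.2% and 40.9%, where it was higher for 57.4% of all tested genes. Gins1, a subunit of the replicative helicase, had 1.93, 1.93 and 1.90 FPKM in Alb-Cre livers, against 3.70, 3.72 and 2.61 FPKM in floxed controls (log2 difference -0.56, SE 0.15, limma adjusted p = 0.439). Rpa3, a subunit of the single-strand binding complex, averaged 6.64 ± 0.854 FPKM in Alb-Cre livers and 10.51 ± 2.52 FPKM in floxed controls (SD, n = 3 each), and Rfc2, of the clamp loader, 16.5 ± 1.58 FPKM in Alb-Cre livers and 12.8 ± 1.46 FPKM in floxed controls. Of the licensing and firing genes 0 were higher and 1 lower (5.88%) at an unadjusted p under 0.05, and of the fork genes 1 was higher and 1 lower (4.55% each), where 5.56% of all tested genes were higher and 3.22% lower. The median log2 difference was -0.01 for licensing and firing genes and -0.12 for fork genes.

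Ccnh, the cyclin of the CDK-activating kinase, averaged 8.71 ± 0.260 FPKM in Alb-Cre livers and 11.3 ± 0.880 FPKM in floxed controls (SD, n = 3 each). Smc3, a cohesin subunit, averaged 6.09 ± 0.546 FPKM in Alb-Cre livers and 8.47 ± 1.57 FPKM in floxed controls. They were the only genes of their lists with an unadjusted p under 0.05. Of 18 ubiquitin ligase genes 0 had an unadjusted p under 0.05, while the groups did not overlap for 5, all higher, or 27.8%, where 9.87% of all tested genes were higher in this way. They were Anapc2, Anapc5, Anapc7, Fzr1 and Skp1a. The most abundant were Skp1a, at 160.1 ± 11.5 FPKM in Alb-Cre livers and 144 ± 4.16 FPKM in floxed controls, and Anapc5, at 30.9 ± 1.22 FPKM in Alb-Cre livers and 28.4 ± 0.752 FPKM in floxed controls.

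Of the marker lists of other cell types, the neutrophil list stood out most in Alb-Cre replicate 1, by its sum relative to the next liver. In bulk RNA, fewer cells of a type and less RNA per cell cannot be told apart. The 7 neutrophil markers found in the table summed to 269.9, 9.74 and 14.2 FPKM in Alb-Cre livers, against 29.1, 5.59 and 11.7 FPKM in floxed controls. Their sum in Alb-Cre replicate 1 was 9.27 times that of the next liver, where the mitotic sum was 6.27 times. All 7 of 7 were highest in that liver, where 38.2% of all tested genes were. Mpo and Elane, granule enzymes made by dividing granulocyte precursors and chosen from a longer list after their values were seen, had 4.31 and 5.22 FPKM there, and 0 to 0.253 FPKM in the other 5 livers. Other genes of that precursor list did not share this. Klf1, an erythroid transcription factor, was lowest in Alb-Cre replicate 1, at 1.28 FPKM against 2.02 to 6.19 FPKM elsewhere, and Kit, a receptor of blood precursors, had 2.54 FPKM there, below floxed control 3 at 2.83 FPKM. The 12 macrophage markers summed to 1109, 327 and 529 FPKM in Alb-Cre livers, against 716, 163 and 649 FPKM in floxed controls, with 10 of 12 highest in Alb-Cre replicate 1. The 9 T and NK cell markers summed to 13.1, 3.01 and 8.70 FPKM in Alb-Cre livers, against 6.42, 2.04 and 7.10 FPKM in floxed controls. The part of these cells in the mitotic level was not tested.

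**Figure D5:**
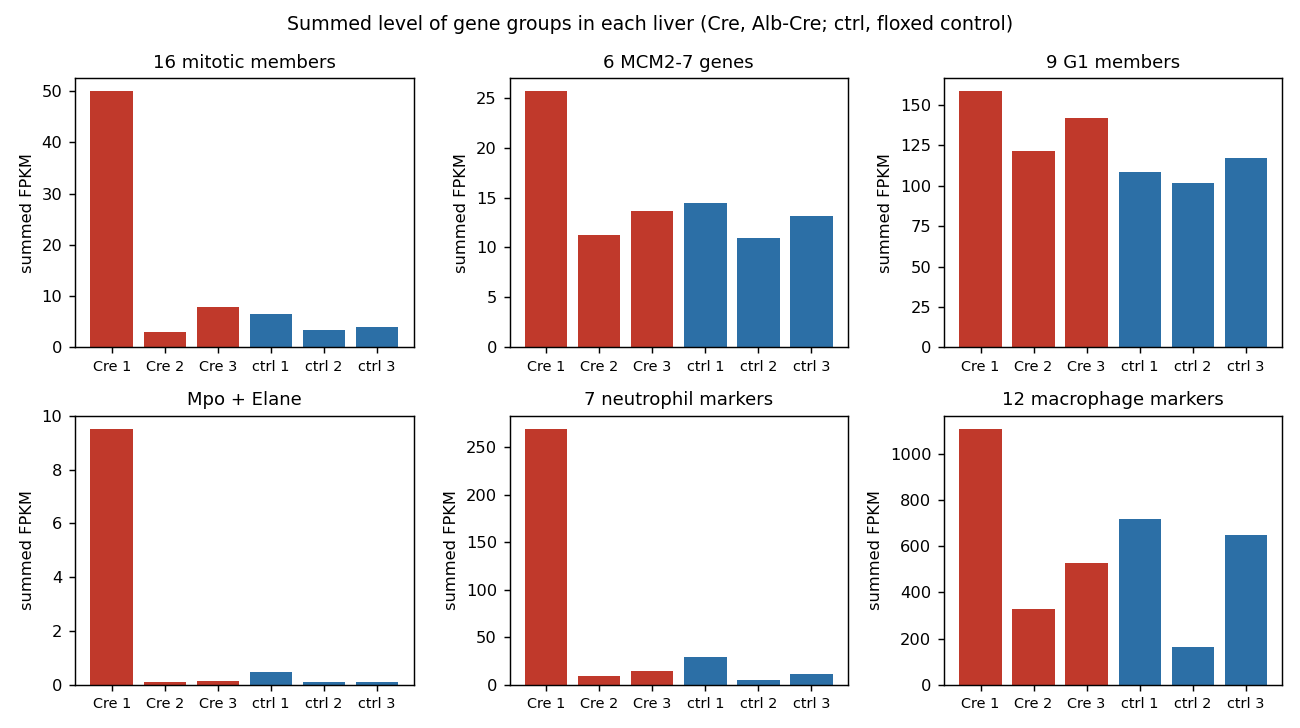
Summed FPKM in each liver for the 16 mitotic genes, the 6 MCM genes, the 9 G1 genes, Mpo with Elane, 7 neutrophil markers and 12 macrophage markers, with bars from 0. Alb-Cre replicate 1 has the tallest bar in each panel, with 49.95 FPKM for mitotic genes and 9.53 FPKM for Mpo with Elane.

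The hepatocyte, endothelial and B cell lists did not peak in that liver, and the erythroid, stellate and cholangiocyte lists did. The 7 B and plasma cell markers found summed to 13.3, 11.6 and 15.6 FPKM in Alb-Cre livers, against 10.8, 6.92 and 11.5 FPKM in floxed controls. Erythroid and precursor markers, which include Mpo and Elane, summed to 196.8, 95.6 and 155.3 FPKM in Alb-Cre livers, against 36.2, 119.9 and 73.3 FPKM in floxed controls. Endothelial markers summed to 226, 119 and 119 FPKM in Alb-Cre livers, against 257, 74.0 and 217 FPKM in floxed controls. Stellate cell markers summed to 176, 117 and 90.3 FPKM in Alb-Cre livers, against 148, 96.8 and 118 FPKM in floxed controls, and cholangiocyte markers to 146, 16.05 and 15.1 FPKM in Alb-Cre livers, against 60.3, 47.4 and 29.8 FPKM in floxed controls. Spp1, which other cells also express, made up 143.5 FPKM of the cholangiocyte sum in Alb-Cre replicate 1, and only 2 of 6 of those markers were highest there. Of the 7 tested hepatocyte markers 0 were highest in Alb-Cre replicate 1, where 38.2% of all tested genes were. Alb, listed at 0 in all 6 livers, was not tested.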

How the data were processed

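The authors deposited FPKM values in a table with a column for each library. Its header names no unit, which was inferred from how the values behave. STAR, DESeq2 and the build mm10 are named in the submitters' processing notes with no role or version. The annotation, the use of strand and the handling of reads that match several genes are not stated there. Per the labels' protocols, RNA was selected for poly(A), a directional library kit was used and sequencing was single-end. Nothing in the labels says that the samples are separate animals, and a p-value here reflects only how these 6 samples vary.

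The 36 genes, the other gene lists and the tests were chosen with earlier results of these data known. Genes with a mean of at least 0.1 FPKM over the 6 livers were tested, 13977 in all, so that low genes were kept and the filter did not depend on which group was high. All 36 genes passed. Bub1 and Ccnb1 passed through Alb-Cre replicate 1, since neither did without it. limma 3.58.1 in R 4.3.3 was run with an intensity trend on log2(FPKM + 1), whose fold changes understate those of low genes, with Benjamini-Hochberg adjustment at 0.05. The fit was tested on simulated data. With 3 livers against 3, the smallest p of an exact permutation test is 0.1, and none was run. Lists were described by counts and medians.

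Read totals were estimated as the total at which FPKM times length (less 200 bases), for genes with 1 annotated transcript over 1500 bases and under 0.5 FPKM, lay nearest to whole reads. Of those values that stood for only a few reads, 70.6 to 73.6% were within 0.05 reads of a whole number. A total fixed beforehand would give 10% by chance. Each total was chosen to make this share largest, so 10% understates what the search gives by chance. Estimated reads of a gene use its longest coding transcript. At this depth 1 read on 2000 bases is worth 0.0315 to 0.0377 FPKM. Counting error alone is covered by such numbers. Positions and overlaps are from GENCODE M21 (GRCm38), and 16 of the 36 genes overlap another annotated gene, 10 of them a coding gene on the other strand. Promoter sequences are from RefSeq. Ccnd1, Ccnd2, Ccne2, Mcm4, Ccna2, Aurkb and Foxm1 had no window.

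Values per liver were given for genes with an unadjusted p under 0.05 or separate groups, the 3 most abundant genes of each class, and others of the 36 chosen after their values were seen. From other lists up to 4 genes with an unadjusted p under 0.05, or else the 2 most abundant, were named. Pttg1, Anapc2, Anapc7, Fzr1 and the cell type genes named singly were chosen after their values were seen. Deviations from the group mean of same-numbered livers correlated at 0.399, 0.215 and 0.210 over the tested genes for numbers 1, 2 and 3. Those of livers with different numbers correlated at -0.306 to 0.102. The labels state no pairing, so the main fit, which gave the differences, SEs and p-values above, left the livers unpaired. The replicate number served as a block only in an alternative fit.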

Additional observations from a re-analysis of the deposited data

How the results depend on the processing

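With the replicate number as a block, 1 gene was called higher and 1 lower among all genes, where 1 and 2 were called without it, and it changed no call among the 36 genes. Sample quality weights called 423 genes higher and 302 lower, among them 1 member higher (Ccnd3, limma adjusted p = 0.0383) and 1 lower (Tk1, 0.0315), and also called Cdkn1a, Cdkn2a, Tfdp2 and Lin9. Their estimation stopped before it converged. Alb-Cre replicate 3 received a weight of 9.39, against 0.235 and 0.801 for Alb-Cre replicates 1 and 2, so these calls rest largely on 1 Alb-Cre liver. The gene-by-gene form of these weights, chosen after seeing the data, called 5 genes higher and 2 lower and none of the 36. Leaving out 1 liver gave 1 to 57 genes higher and 2 to 43 lower, the most without Alb-Cre replicate 1, and 0 of the 36 genes. Leaving out both libraries numbered 1, also chosen after seeing the data, gave 10 higher and 12 lower and 0 of the 36. None of the 23 genes named by the rule changed sign under the 16 alternatives (363 values). These included filters, a pseudocount of 0.1 FPKM, quantile normalization, median-ratio scaling and no trend. Much of that outcome was fixed in advance. The filters, the block and the fit with no trend leave a gene's difference as it was. Genes whose groups do not overlap cannot change sign through weights or through leaving out livers. Over the 16 alternatives the limma adjusted p ran from 0.0315 to 0.840 for Tk1 and from 0.0383 to 0.899 for Ccnd3. Without Alb-Cre replicate 1 the median difference of S-phase genes turned to -0.20, and that of mitotic genes fell to 0.06. Depth limits the mitotic genes most, at about 10 reads per value in 5 livers.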
